A study of Homo sapiens with 4 samples.

Results

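The autophagy, lysosome and V-ATPase genes described here are 60 of the 10147 expressed genes in a table of RNA synthesis after acute loss of IWS1. They were chosen by gene name, with earlier results of these data known. The rule took the genes named ATG with a number, the ULK kinases, the GABARAP and MAP1LC3 genes, the cathepsins, the LAMP and LAMTOR genes, all genes named ATP6V or ATP6AP, WIPI1 and WIPI2, and *BECN1*, *SQSTM1*, *NBR1*, *RB1CC1*, *TFEB*, *TFE3*, *MTOR* and *RPTOR*. All 60 had reads that could be tested. *BECN1* was not analysed here.

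K562 cells, a human chronic myelogenous leukemia line, carried a degradation tag (dTAG) at the N terminus of IWS1, a protein that travels with RNA polymerase II. Control cells received the solvent DMSO and dIWS1 cells received 500 nM of the ligand dTAG7, each for 1 h, and both carried the tag. New RNA was labelled with 500 µM 4-thiouridine (4sU) for 5 min and sequenced by TT-seq, which counts RNA made during the pulse, introns included. There were 2 control and 2 dIWS1 libraries, described as biological replicates. The cells came from genome-edited clones, and the number of clones behind these libraries is not given in the sources used here.

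Autophagy encloses cytoplasmic material in a double membrane and delivers it to the lysosome. The ULK1 kinase complex starts the process, lipid kinase and lipid transfer proteins build the membrane, and ubiquitin-like conjugation attaches ATG8 family proteins to it, which bind cargo receptors. Lysosomes digest the cargo with hydrolases such as the cathepsins, at an acid pH kept by the V-ATPase, a proton pump made of a cytosolic V1 sector that hydrolyses ATP and a membrane V0 sector that passes protons. The kinase mTORC1 is recruited to the lysosome by the Ragulator complex and restrains both ULK1 and the transcription factors TFEB and TFE3, which are known to bind E-box-like letters at lysosomal genes.

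Because TFEB and TFE3 are members and several other members are known targets of theirs, the reference promoters were searched for the E-box CACGTG, which reads the same on both strands, in the 250 bases before the RefSeq start site (GRCh38.p14). Of 51 members with a promoter entry, 12 held it (23.5%), beside 897 of 7910 genes of the table (11.3%) and 6.34% of all 35116 promoters. The longer form GTCACGTG, searched on both strands and always overlapping CACGTG, was in 9 members (17.6%), beside 4.99% of the genes of the table and 2.16% of all promoters. Members without an entry were *ATP6V1E2*, *ATP6V1H*, *CTSS*, *RB1CC1*, *CTSB*, *ATP6V1C1*, *ATP6V1B2*, *ATP6V1A* and *LAMP2*.

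Windows from 6 of these promoters are shown, 5′ to 3′ on the strand of the gene, with CACGTG in capitals. They include *LAMP1*, whose upstream region held 5 copies, and, of the members with the letters, the one with the lowest fold change (*ATP6V0B*) and the one with the highest (*ATG3*). The windows lie at chr13:113296989-113297238, plus strand (*LAMP1*), chr1:43974871-43974940, plus strand (*ATP6V0B*), chr11:1763937-1764006, minus strand (*CTSD*), chr9:114587679-114587748, plus strand (*ATP6V1G1*), chr20:45891261-45891330, plus strand (*CTSA*) and chr3:112561963-112562012, minus strand (*ATG3*). Each letter match is a description of the reference and not a measured binding site.
LAMP1: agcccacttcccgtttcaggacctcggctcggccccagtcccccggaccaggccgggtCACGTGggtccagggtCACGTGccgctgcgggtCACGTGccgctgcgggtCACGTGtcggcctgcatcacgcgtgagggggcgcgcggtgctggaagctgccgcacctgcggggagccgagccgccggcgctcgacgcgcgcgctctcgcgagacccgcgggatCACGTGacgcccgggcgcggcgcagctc
ATP6V0B: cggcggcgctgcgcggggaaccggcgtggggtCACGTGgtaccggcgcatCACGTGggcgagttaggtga
CTSD: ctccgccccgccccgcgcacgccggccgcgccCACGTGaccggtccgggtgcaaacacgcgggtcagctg
ATP6V1G1: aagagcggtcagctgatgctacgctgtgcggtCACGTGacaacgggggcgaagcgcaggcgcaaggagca
CTSA: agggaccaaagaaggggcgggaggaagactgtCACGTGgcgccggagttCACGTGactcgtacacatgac
ATG3: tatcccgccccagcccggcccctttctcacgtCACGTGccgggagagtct

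The deposited means hold reads of only 3 distinguishable columns, a control column that enters the mean with the weight of 2 columns and the dIWS1 columns 1 and 2. The control was therefore counted once, and the spread is known for the dIWS1 side only. The columns had 29697189 (control), 20599922 (column 1) and 20807156 (column 2) reads in genes, with spike-in size factors of 1.01, 0.993 and 0.919. Which side is dIWS1 follows from the study's own way of writing fold changes (dIWS1/control), since no column carries a sample name. *IWS1* itself had 3684, 2334 and 2427 reads, which does not check the labels because the ligand removes the protein. All 8 K562 marker genes were in the table, among them *GATA1* (1498 control reads), and of 7 genes of other lineages *SPI1* (889 control reads) and *KRT8* (2777 control reads) were.

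Upon IWS1 depletion, RNA synthesis of the 60 genes was lower or did not pass the test, and it rose for none of them. With spike-in scaling, 35 members (58.3%) fell at an adjusted p under 0.05 in limma voom, where 64.5% of all 10135 genes tested fell, and 0 members rose, where 0.109% of all genes did. The study treated the same number of cells for each replicate and added the spike-ins to their lysates. No cell count after the 1 h is given in the sources used here. Reads from a whole culture alone cannot tell fewer cells from less new RNA per cell. Without adjustment, 37 members were lower and 0 higher at p under 0.05. The same count over all genes was not taken. Limma without weights called 29 members lower, beside 5591 of 10135 genes, and 0 higher, beside 26 genes. The median log2 fold change was -0.37 for the members and -0.43 for all genes. Fitted log2 fold changes ran from -0.88 (*RPTOR*) to -0.06 (*ATG101*), all 60 were below 0, and 55 were below 0 in both dIWS1 columns. Of all 10135 genes, 9771 were below 0 and 9338 were below 0 in both columns.

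The 2 dIWS1 columns did not sit at the same height. In 50 of the 60 members column 1 was lower than column 2, with a median difference of 0.14 on the log2 scale, and in all genes the median difference was 0.11. The members' median was -0.42 in column 1 and -0.33 in column 2. Standard errors of the members' log2 fold changes were between 0.13 and 0.25 with a median of 0.14. The smallest fall that was called was 0.30 (*GABARAPL2*).

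**Figure D1:**
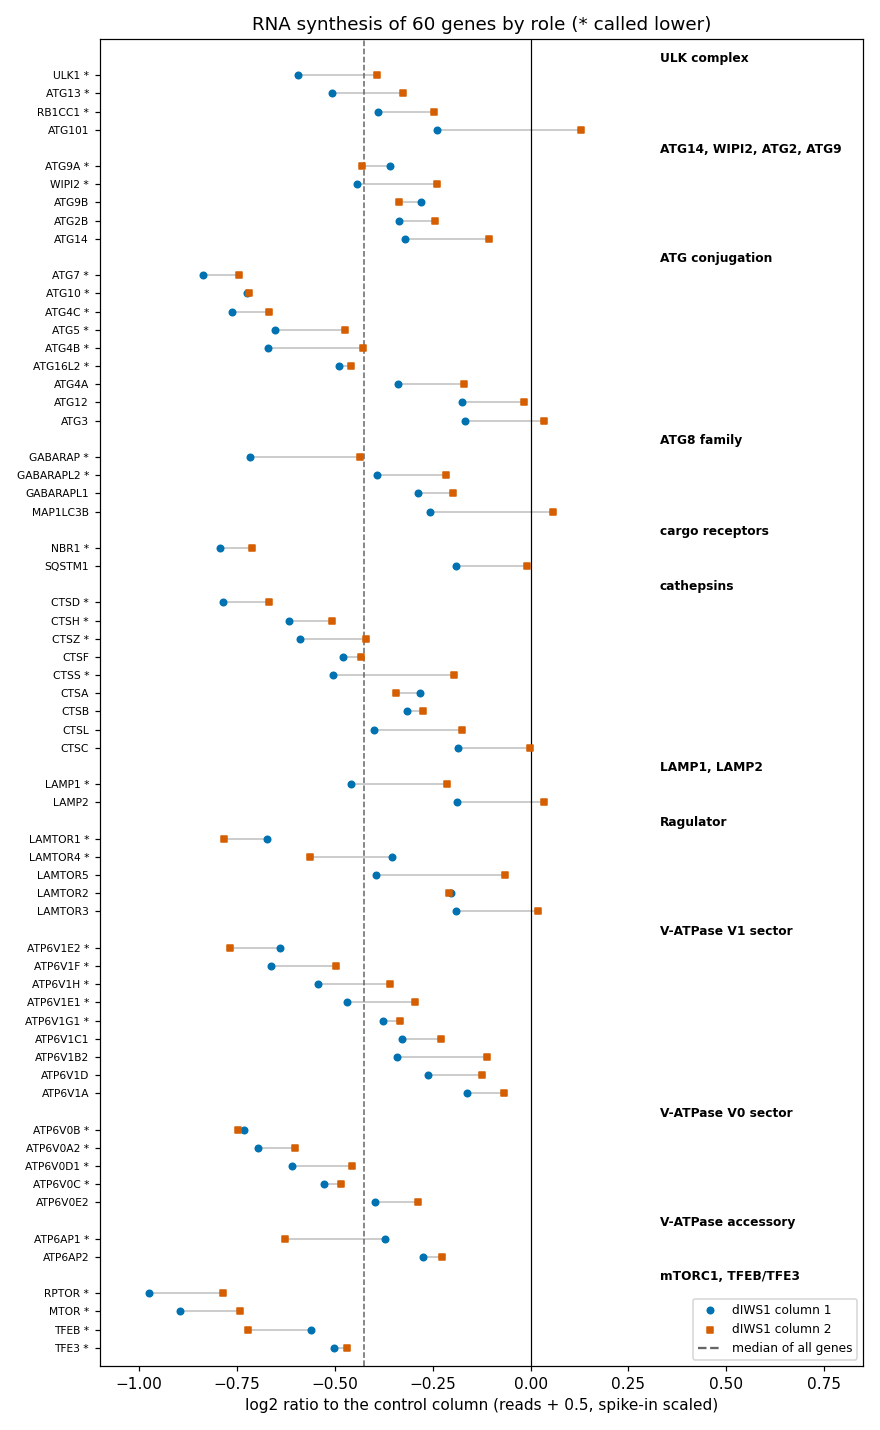
Log2 ratio of each of the 60 genes in dIWS1 column 1 (circles) and column 2 (squares) to the control column, after spike-in scaling and with 0.5 reads added, grouped by role; stars mark the 35 genes called lower and the dashed line is the median of all genes (-0.43). Most genes lie left of 0 in both columns, the mTORC1 and conjugation genes reach farthest left, and *ATG101*, *MAP1LC3B*, *LAMP2*, *ATG3* and *LAMTOR3* have column 2 right of 0.

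Since most genes of the cell fell, each member was also set against the median gene, by moving the scale so that the median log2 fold change over all genes was 0. Only *RPTOR* was then called, lower by 0.46 on the log2 scale (adjusted p = 0.0191, limma voom), and 0 members were called higher. Over all genes 4.78% were called lower and 3.01% higher on this scale. Without adjustment, 9 members were lower and 9 higher at p under 0.05, and the same count over all genes was not taken. Of the members 33 lay above the median gene and 27 below it, and their median was 0.06.

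When each dIWS1 column was set on its own median gene, which takes the height difference between the columns out of the error, 7 members were called lower and 8 higher, where 12.7% and 12.8% of all genes were. The lower ones were *RPTOR*, *MTOR*, *ATG7*, *NBR1*, *ATG10*, *ATG4C* and *ATP6V0A2*, and the higher ones were *LAMP2*, *CTSC*, *SQSTM1*, *ATG3*, *ATP6V1A*, *ATG12*, *LAMTOR3* and *MAP1LC3B*. Scaling by the total reads in genes gave 7 lower and 10 higher members, where 10.7% and 14.6% of all genes were called. The first of these settings was added after the data were seen, and both read a gene relative to the others, not as an amount of RNA.

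**Figure D2:**
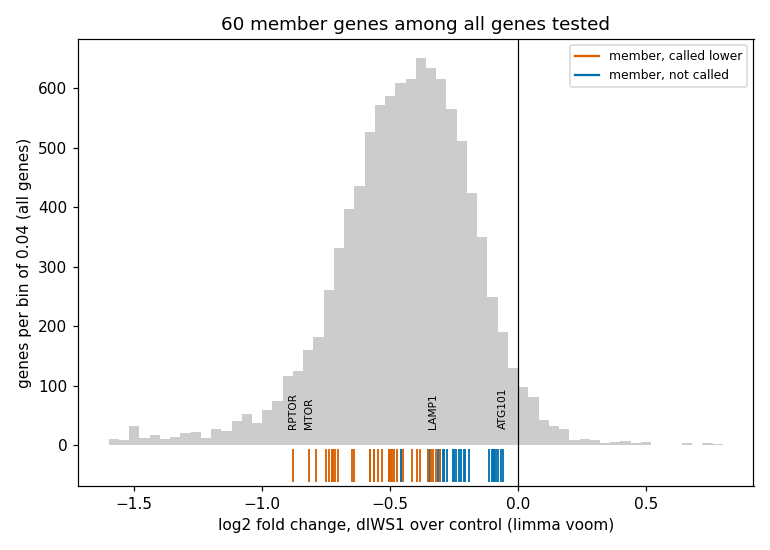
Histogram of the log2 fold change (dIWS1 over control, limma voom) of all genes tested in bins of 0.04, with one tick below the axis for each of the 60 members, colored by call; 84 of 10135 genes lie outside the drawn range. The members spread over the same range as most genes, from *RPTOR* at -0.88 to *ATG101* at -0.06, and none lies to the right of 0.

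Of the 4 genes of the ULK1 kinase complex 3 were called lower (75.0%, beside 64.5% of all genes). The median of the 4 stood 0.06 above the median gene. *ULK1*, the kinase, had 1214 reads in the control column, 791 in column 1 and 842 in column 2. It fell by 0.49 on the log2 scale (SE 0.13, adjusted p = 0.000854). *ATG13*, its regulatory subunit, fell by 0.42 from 4415 control reads, and *RB1CC1* (FIP200), the scaffold, by 0.32 from 16230 control reads. *ATG101*, the small partner of ATG13, had 258, 215 and 257 reads. Its dIWS1 columns lay on both sides of the control after scaling, at log2 ratios of -0.24 and 0.13, and it was the member with the smallest difference from the control (-0.06, adjusted p = 0.716).

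The genes for membrane formation downstream of ULK1 lay close together. Of these 5 genes 2 were called lower (40.0%, beside 64.5% of all genes), and 0 against the median gene. *ATG9A*, a lipid scramblase of the seed vesicles, had 364, 279 and 246 reads and fell by 0.39. *WIPI2*, which reads the lipid PI3P, fell by 0.34 from 2916 control reads. The other 3 were not called: the lipid transfer protein gene *ATG2B* at -0.29, *ATG9B* at -0.31 from only 100 control reads, and *ATG14*, which directs the lipid kinase complex to autophagosomes, at -0.21 with 1597, 1257 and 1352 reads.

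Of the 9 conjugation genes 6 fell (66.7%, beside 64.5% of all genes). All 9 had log2 fold changes below 0, as did 9771 of all 10135 genes. *ATG7*, the E1-like enzyme that activates both ATG12 and the ATG8 proteins, had 14405 reads in the control and 7938 and 7823 in the dIWS1 columns. Its RNA synthesis was 57.8% of the control (log2 fold change -0.79, SE 0.15, adjusted p = 7.79e-07). *ATG10*, the E2-like enzyme for ATG12, gave 11964, 7121 and 6619 reads and a change of -0.72, with both columns at the same ratio. The protease gene *ATG4C* (-0.71), *ATG5* (-0.56), which receives ATG12, *ATG4B* (-0.55) and *ATG16L2* (-0.47) also fell.

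The 3 conjugation genes that were not called were the protease gene *ATG4A*, the ubiquitin-like *ATG12* and *ATG3*, the E2-like enzyme for the ATG8 proteins. *ATG3* had 1438, 1259 and 1341 reads, a log2 fold change of -0.07 (adjusted p = 0.668) and 95.7% of the control level. *ATG12* had 1028, 896 and 926 reads and a change of -0.09. *ATG4A* had column ratios of -0.34 and -0.17. The highest column value of a called gene of this role was -0.43 (*ATG4B*, column 2). The calls rest on these same ratios, so a gap between called and uncalled genes is no separate result. Relative to the median gene, *ATG3* stood 0.36 higher (adjusted p = 0.0896) and *ATG7* 0.37 lower (adjusted p = 0.1), neither past the threshold.

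Among the ATG8 family, whose proteins coat the autophagosome membrane, *GABARAP* and *GABARAPL2* fell and *GABARAPL1* and *MAP1LC3B* did not pass the test. Thus 2 of 4 were called lower (50.0%, beside 64.5% of all genes), and 0 against the median gene. *GABARAP* had 226, 135 and 152 reads and fell by 0.58 (SE 0.16, adjusted p = 0.000807). *GABARAPL2* had 1054, 790 and 826 reads and fell by 0.30 (adjusted p = 0.037). *GABARAPL1* gave 372, 300 and 295 reads, with a change of -0.24 (adjusted p = 0.0974). *MAP1LC3B*, which encodes the LC3 protein used as the usual marker of autophagosomes, gave 1352, 1114 and 1282 reads and -0.10 (adjusted p = 0.52). Its columns lay at log2 ratios of -0.26 and 0.06. Only unique alignments were kept, so reads that *MAP1LC3B* shares with its near copy *MAP1LC3B2* were not counted.

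Of the 2 cargo receptor genes 1 was called lower (50.0%, beside 64.5% of all genes), and 0 against the median gene. *NBR1* had 1574 reads in the control and 893 and 876 in the dIWS1 columns and fell by 0.75 (SE 0.14, adjusted p = 8.14e-07). *SQSTM1*, which encodes p62, the main receptor for ubiquitylated cargo, had 5147, 4436 and 4657 reads. It stayed at 93.5% of the control (log2 fold change -0.10, SE 0.15, adjusted p = 0.542). The ratios of *NBR1* (-0.79 and -0.71) and those of *SQSTM1* (-0.19 and -0.01) did not overlap, and the difference between the genes was not tested.

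Of the 9 cathepsin genes, which encode lysosomal peptidases, 4 fell (44.4%, beside 64.5% of all genes) and 5 were not called. Their median was -0.35. *CTSD*, the main aspartic protease of lysosomes, was the lowest, with 517, 295 and 296 reads and a fall of 0.73 (SE 0.13, adjusted p = 6.01e-07). *CTSH* (-0.56), *CTSZ* (-0.51) and *CTSS* (-0.35) followed. The cysteine protease genes *CTSB* and *CTSL* were at -0.29 each (adjusted p = 0.0577 and 0.0536). *CTSC*, which activates granule proteases, was the highest with 5498, 4758 and 5003 reads and a change of -0.09. *CTSF*, at -0.46, had the fewest reads of any member, 64, 45 and 43, and its standard error of 0.25 was the widest.

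LAMP1 and LAMP2 are the most abundant proteins of the lysosomal membrane. *LAMP1* gave 1455, 1042 and 1143 reads and fell by 0.33 (SE 0.14, adjusted p = 0.027). *LAMP2*, an isoform of which is the receptor of chaperone-mediated autophagy, gave 7668, 6624 and 7152 reads. Its change was -0.08 (SE 0.15, adjusted p = 0.638), and its column 2 lay above the control after scaling (log2 ratio 0.03).

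Of the 5 Ragulator genes 2 were called lower (40.0%, beside 64.5% of all genes), and 0 against the median gene. Differences between these genes were not tested. *LAMTOR1*, which anchors the complex to the membrane, had 662, 408 and 350 reads and fell by 0.73 (SE 0.13, adjusted p = 3.89e-07). *LAMTOR4* had 385, 296 and 237 reads and fell by 0.46. *LAMTOR5* (-0.23), *LAMTOR2* (-0.21, from 89 control reads) and *LAMTOR3* were not called. *LAMTOR3* was the highest of the 5, with 925, 797 and 854 reads and -0.08 (adjusted p = 0.556). The called and uncalled genes overlapped in single columns, since column 1 of *LAMTOR4* was at -0.36 and column 1 of *LAMTOR5* at -0.39.

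The mTORC1 genes with *TFEB* and *TFE3* had the lowest median of any role, -0.73. All 4 fell, where 64.5% of all genes did, and 1 of the 4 (*RPTOR*) was called against the median gene. *RPTOR*, the mTORC1 subunit that holds its substrates, lies on the plus strand of chromosome 17 from 80544838 to 80966368 and is the longest member at 422 kb, with 34 exons in its canonical transcript. It had 35077 reads in the control, 17551 in column 1 and 18518 in column 2, and its synthesis was 54.4% of the control (log2 fold change -0.88, SE 0.14, adjusted p = 6.07e-09). Both columns lay far below the median gene, and 6.45% of all genes had as low a fold change.

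*MTOR*, the kinase, spans 156 kb on the minus strand of chromosome 1 (11106535 to 11262551) with 58 exons. It had 10602, 5606 and 5774 reads and fell by 0.82 (SE 0.15, adjusted p = 4.77e-07). *TFEB* had 585, 390 and 323 reads and fell by 0.64 (SE 0.13, adjusted p = 8.12e-06). *TFE3* had 307, 213 and 202 reads and fell by 0.49 (SE 0.14, adjusted p = 0.00199). Relative to the median gene, *TFEB* was at -0.21 (adjusted p = 0.33) and *TFE3* at -0.06 (adjusted p = 0.842).

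The V-ATPase had 10 of its 16 genes called lower (62.5%, beside 64.5% of all genes), with a median of -0.42, beside -0.43 for all genes. Against the median gene 8 of the 16 lay above it and 8 below. In the V1 sector 5 of 9 fell (55.6%) and the median was -0.35. In the V0 sector 4 of 5 fell (80.0%) and the median was -0.53. The difference between the sectors was not tested.

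In the V1 sector the range ran from *ATP6V1E2* (-0.70), with 238, 150 and 127 reads, to *ATP6V1A* (-0.11), with 3048, 2679 and 2649 reads. *ATP6V1A* and *ATP6V1B2* encode the catalytic and the regulatory subunit of the head that hydrolyses ATP, and neither passed the test (adjusted p = 0.483 and 0.144). The stalk and regulatory subunit genes *ATP6V1F* (-0.58), *ATP6V1H* (-0.45), *ATP6V1E1* (-0.38) and *ATP6V1G1* (-0.35) fell. *ATP6V1C1* (-0.28) and *ATP6V1D* (-0.19) were not called.

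In the V0 sector, *ATP6V0B*, a proteolipid of the rotating ring, was the lowest gene of the whole pump. It had 441, 261 and 239 reads and fell by 0.74 (SE 0.14, adjusted p = 7.1e-07), with both columns at nearly the same ratio. *ATP6V0A2*, an isoform of the proton channel subunit, fell by 0.65 from 4263 reads, *ATP6V0D1* by 0.53 and the main ring subunit gene *ATP6V0C* by 0.51. *ATP6V0E2* had 110, 82 and 82 reads and was not called (-0.34, adjusted p = 0.115). Of the accessory subunit genes, *ATP6AP1* fell by 0.50 (399, 303 and 235 reads) and *ATP6AP2*, the prorenin receptor, was at -0.25 (380, 309 and 296 reads, adjusted p = 0.0878).

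Reads per length of gene were unequal among the pump genes. The measure divides reads in exons and introns by the whole annotated length, so it is not a rate of transcription. In the control column *ATP6V1F* had 334 normalized reads per kb of gene and *ATP6V1E1* had 133, while the second E subunit gene *ATP6V1E2* had 7.67. *ATP6V0B* (131), *ATP6V0C* (122) and *ATP6V1G1* (120) were close to each other, and *ATP6V0E2* (14.1) and *ATP6AP2* (14.5) were low. With 1 control column, neighbors in this order cannot be told apart by a test.

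**Figure D3:**
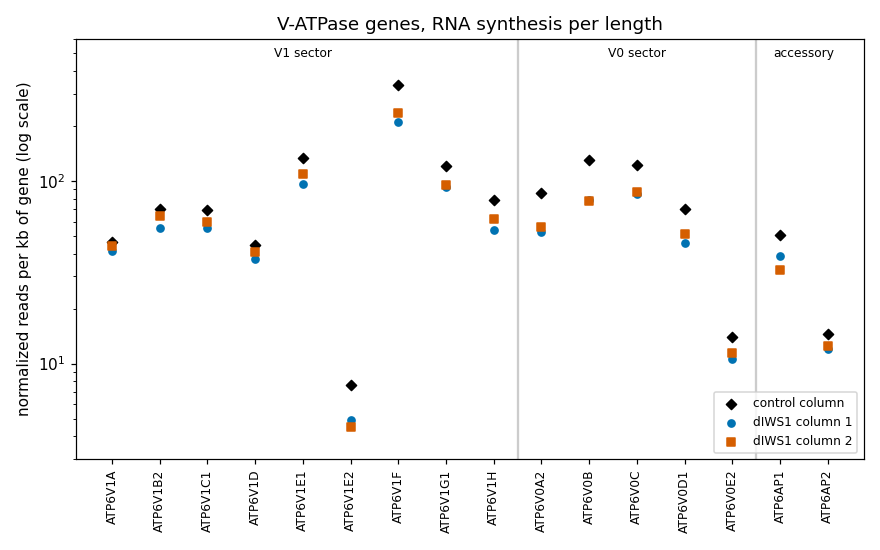
Normalized reads per kb of gene (log scale) of the 16 V-ATPase genes in the control column (diamonds), dIWS1 column 1 (circles) and dIWS1 column 2 (squares), by sector. Both dIWS1 columns lie below the control for all 16 genes, and the levels range from 7.67 (*ATP6V1E2*) to 334 (*ATP6V1F*) in the control.

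Gene length was compared because the members range from a few kb to the 422 kb of *RPTOR*, in 4 length classes. The 13 members under 10 kb had a median log2 fold change of -0.46, the 15 from 10 to 25 kb -0.30, the 21 from 25 to 65 kb -0.35 and the 11 over 65 kb -0.56. The same classes of all genes had medians of -0.49, -0.39, -0.35 and -0.49. In the longest class 8 of 11 members fell, namely *RPTOR*, *MTOR*, *ATG7*, *ATG10*, *ATG4C*, *ATG5*, *ATP6V1H* and *RB1CC1*. This is 72.7% of the members in the class, where 78.0% of all genes of that length fell. The 7 members that were lower when each column was set on its own median gene were 5 genes over 65 kb and 2 (*ATP6V0A2* and *NBR1*) of 25 to 65 kb. Among all genes 647 of 2428 over 65 kb and 323 of 2794 from 25 to 65 kb were called lower on that scale. The 8 members that were higher on it were 3 of 10 to 25 kb, 4 of 25 to 65 kb and 1 over 65 kb, where 325 of 2326, 611 of 2794 and 266 of 2428 genes were.

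**Figure D4:**
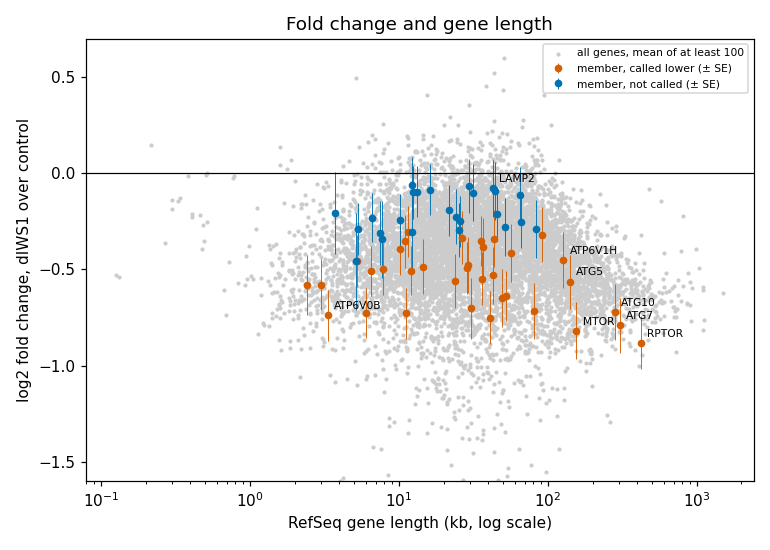
Log2 fold change against RefSeq gene length (log scale) for the 60 members with standard errors (orange called lower, blue not called) and for the 8769 genes whose mean reached 100 normalized reads (gray; 14 lie outside the drawn range). The longest members, *RPTOR*, *ATG7*, *ATG10* and *MTOR*, lie at -0.72 or below, and short members such as *ATP6V0B* (3.34 kb) reach similar values.

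The fold changes were set beside the E-box letters shown above. The 12 with CACGTG had a median log2 fold change of -0.41, with 7 called lower, and the 39 without it had -0.42, with 24 called lower. Of the 6 whose windows are printed, *ATP6V0B* (-0.74), *CTSD* (-0.73), *ATP6V1G1* (-0.35) and *LAMP1* (-0.33) fell, and *CTSA* (-0.31, adjusted p = 0.0869) and *ATG3* (-0.07) were not called. For the genes of the table the medians were -0.43 with the letters and -0.42 without. The longer form GTCACGTG gave -0.35 for the 9 members with it and -0.44 for the 42 without, and for the genes of the table the order was the opposite (-0.45 with it and -0.42 without).

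Other genes of the pathway were taken from lists of 96 names, of which 79 could be tested. Their median was -0.44, with 57 (72.2%) called lower, where 64.5% of all genes were, and 0 higher. Against the median gene 7 of the 79 were lower and 3 higher, where 4.78% and 3.01% of all genes were. Among the lysosomal hydrolases and their partners 17 of 25 fell (68.0%, beside 64.5% of all genes). This list ran from *IDUA* (-1.04), the enzyme missing in Hurler syndrome, with 272, 124 and 127 reads, to *FUCA1* (0.03, not called) with 214, 215 and 198. Among the membrane and sorting genes 9 of 14 fell (64.3%), with *OSTM1* lowest (-0.98) and *SCARB2* highest (-0.13). For lipid kinase and fusion genes it was 10 of 13 (76.9%), from *WDR45* (-0.71) to *NRBF2* (0.04). For selective receptors it was 5 of 9 (55.6%), from *TEX264* (-0.82) to the mitophagy receptor gene *BNIP3L* (-0.03).

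The list of mTORC1 and Rag GTPase regulators had 16 of 18 genes lower (88.9%, beside 64.5% of all genes) and a median of -0.60. Against the median gene 1 of the 18 was called lower and 0 higher. Its lowest gene, *BORCS6* (-1.07), had only 22, 15 and 6 reads. *NPRL3*, a subunit of the GATOR1 complex that inhibits the Rag GTPases, had 2351, 1229 and 1205 reads and fell by 0.87 (SE 0.14, adjusted p = 4.15e-08). *RHEB*, the GTPase that activates mTORC1, was the highest at -0.21 and was not called (adjusted p = 0.178).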

How the data were processed

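TT-seq libraries (2 control, 2 dIWS1) were aligned by the authors to GRCh38 with spike-in sequences using STAR 2.6.0, and read pairs were counted per RefSeq gene by strand. Overlapping genes and genes with a median RPK of at most 10 had been removed. The deposited table gives, as a coverage signal, each gene's mean of counts divided by spike-in size factors over 4 columns. It also holds the authors' comparison (log2 fold change, its standard error, Wald statistic, p-values). The authors' deposited log2 fold changes were not reported here and served only to narrow the split below and to tell the sides apart. The other comparison columns were not used.

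Low means were sums of 3 fixed steps, so each mean was written as whole reads times these steps. This gave 1 solution for 10135 of 10136 genes with a mean above 0 (the other had several and was left out). For 199 of 199 genes checked up to a mean of 3000 the mean alone gave the same split, and 0 of 300 means moved by a small random amount could be split. The control step had the weight of 2 columns, so the control was counted once, as if it varied like the dIWS1 columns.

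Reads were tested across all genes with limma 3.58.1 (voom, R 4.3.3) on spike-in library sizes, with Benjamini-Hochberg adjustment and a threshold of 0.05. In data simulated for 10135 genes, 190 to 192 of 200 genes changed by 1 on the log2 scale were called, beside 13 to 15 unchanged ones. The simulation held no fall shared by all genes and no height difference between the dIWS1 columns. Its changes were larger than that of any member (at most 0.88), so these rates do not carry over to the calls reported here. Log2 ratios of single columns used 0.5 added reads. The standard errors follow one trend over all genes and p-values measure the spread between these columns only. Named with all reads were, in each role, the lowest and highest member, those called against the median gene, the ATG8 family, *SQSTM1*, *TFEB*, *TFE3*, *MTOR*, *RPTOR*, *LAMP1*, *LAMP2* and *ULK1*, and others as examples. The members and lists were chosen with earlier results of these data known. Lengths, positions and promoters came from RefSeq (GRCh38.p14) and exons from GENCODE release 44. Figures were drawn in Python 3.11.15.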

Additional observations from a re-analysis of the deposited data

How the results depend on the processing

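The number of members lower than the control (35, beside 6533 of 10135 genes) was 20 when a change of at least 0.5 was required (3754 genes). It was 7 with scaling by total reads (1080 genes). Under the other settings it ran from 27 at an adjusted p under 0.01 (4921 genes) to 47 with the control column entered 2 times (7883 genes). That last setting copies the 1 control column, which adds no measured control spread, so its p-values are too small and its counts inflated. The number higher (0, beside 11 genes) was 10 with total-read scaling (1475 genes) and 0 otherwise. Against the median gene, 1 member was lower, beside 484 of 10135 genes. The member count became 0 at an adjusted p under 0.01 (259 genes) or with a change of at least 0.5 (324 genes). In limma without weights it was also 0 (307 genes), with 3 members at an unadjusted p under 0.05. At an adjusted p under 0.1 it was 2 (702 genes). It became 11 with the control column entered 2 times (1584 genes), a count inflated in the same way. With total-read scaling (1080 genes) or with each column on its own median gene (1288 genes) it was 7. The number higher (0, beside 305 genes) became 2 at an adjusted p under 0.1 (480 genes) and 4 with the control entered 2 times (1134 genes). It became 10 with total reads (1475 genes) and 8 with each column on its own median gene (1297 genes). The members' median of -0.37 ranged from -0.42 to -0.33 when either dIWS1 column was left out. It was 0.073 with total reads and 0.057 after recentring, which by construction remove a change shared by all genes.

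Total-read scaling also turned the sign of 9 called members: *ATG13* (0.025), *ATG9A* (0.046), *ATP6V1E1* (0.059), *ATP6V1G1* (0.087), *CTSS* (0.092), *WIPI2* (0.10), *LAMP1* (0.11), *RB1CC1* (0.12) and *GABARAPL2* (0.14). No paired analysis was possible because the recovered columns carry no replicate numbers and the control is 1 column. Leaving out the control column leaves nothing to compare.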
